A study of Mus musculus with 34 samples.

Results

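The killer lectin-like receptors are the mouse genes whose symbols start with Klr. Of 32285 genes in the count tables, 26 carried such a symbol, and 25 of them held at least 20 UMIs (unique molecular identifiers, each a counted RNA molecule) over the 10 libraries of sorted tumour cells. Klrb1, with 49 UMIs, was the lowest gene inside that limit, and Klra10, with 14 UMIs, was the gene outside it. The 25 members were 10 Ly49 genes (Klra), 5 NKR-P1 genes (Klrb1 and its relatives), 5 genes of the CD94 and NKG2 receptors (Klrd1, Klrc1, Klrc2, Klrc3 and Klrk1), Klre1, Klri1 and Klri2, and the 2 Klrg genes. The libraries came from MMTV-Wnt1 mammary tumours, in which a promoter active in mammary epithelium drives the Wnt1 oncogene, transplanted into C57BL6j mice. In 4 libraries, CD45-positive immune cells were sorted from untreated tumours (2 libraries) or from tumours taken 48 h after the last of 5 consecutive doses of 4 mg/kg doxorubicin (2 libraries). In 6 further libraries, 1 per group, cells positive for CD4 or CD8 were sorted from untreated tumours, from tumours taken 48 h after the same doxorubicin course, and from tumours given antibodies later. The antibody groups received 200 ug anti-PD1 with 200 ug IgG, 200 ug anti-CTLA4 with 200 ug IgG, 200 ug of each antibody, or 400 ug IgG alone, in 3 doses at intervals of 72 h, and were taken 24 h after the last dose. All 4 antibody groups carried the doxorubicin course as well. Tumours of every group were digested with a GentleMACS device and the sorted cells were run on the Chromium Single Cell 3' platform.

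These receptors sit on the surface of natural killer (NK) cells and some T cells, where they read whether a neighbouring cell still displays MHC class I or related molecules. Inhibitory members, such as NKG2A (Klrc1) bound to its partner CD94 (Klrd1), hold the cell back through phosphatases, while activating members, such as Ly49H (Klra8) or NKG2D (Klrk1), signal through small adaptor proteins. Each NK cell switches on its own subset of the Ly49 genes, so that a population holds many receptor combinations. Klrg1 binds cadherins and marks mature effector and tissue regulatory T cells, and a few Ly49 genes are used by myeloid cells instead of lymphocytes.

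The libraries held 1480 to 7623 kept cells with a median of 4002 to 10513 UMIs per cell. Cells were gated by lineage genes with no Klr gene among them, which gave 104 NK cells in 3 libraries, 45 gamma delta T cells in 3, and 14124 CD8 T cells, 3262 CD4 T cells and 2822 macrophages in 10. Only libraries with at least 10 cells of a gate entered a test. In the NK gate, 6 T cell markers summed to 3.65 to 8.17 UMIs per 10000 against 12.3 to 29.3 in the CD8 gate, and 8 NK markers summed to 38.4 to 103 against 12.8 to 22.1. The CD8 gate of untreated CD45 replicate 2 carried 5 macrophage markers at a sum of 38.7 UMIs per 10000, against 0.293 to 12.7 in the other 9 libraries, and the CD4 gate of the same library carried 55.4. The neutrophil genes S100a8 and S100a9 summed to 33.9 and 54.5 in the CD8 gates of the doxorubicin CD45 libraries, against 5.46 and 6.58 in the untreated ones. Levels below are UMIs per 10000 UMIs of the gate. They are counts at transcript 3' ends, not divided by gene length, so they are compared between cells and not between genes. The labels do not say whether replicate libraries came from separate animals, so p-values measure the spread between these libraries.

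All 25 members lie on mouse chromosome 6 (GRCm38). Klrg2 (38616329 to 38638815) and Klrg1 (122270596 to 122282833) stand apart, and the other members fill 1 cluster from the start of Klrb1a at 128609227 to the end of Klra2 at 131247716. Promoters of 300 bases, 250 before and 50 after the start, were found in RefSeq (GRCm38.p6) for 22 of the 25 members. They are shown for 5 members on the minus strand that the results turn on, in the gene's own direction. Klra4 (chr6:130067222-130067521) and Klra8 (chr6:130129849-130130148) were the Ly49 genes most restricted to gated NK cells, and Klra2 (chr6:131247313-131247612), Klrb1b (chr6:128826266-128826565) and Klrk1 (chr6:129623815-129624114) fell in gated macrophages after doxorubicin. Capitals mark GAGGAA or its reverse complement TTCCTC, a core of the sites bound by the myeloid factor PU.1, and TGTGGT or its reverse complement ACCACA, a core of the sites bound by RUNX factors.
Klra4: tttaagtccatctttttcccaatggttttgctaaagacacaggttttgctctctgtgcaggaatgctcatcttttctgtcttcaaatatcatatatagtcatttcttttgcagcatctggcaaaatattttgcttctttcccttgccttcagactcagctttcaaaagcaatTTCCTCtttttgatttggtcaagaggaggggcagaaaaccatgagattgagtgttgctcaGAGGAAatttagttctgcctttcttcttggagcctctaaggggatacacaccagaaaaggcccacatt
Klra8: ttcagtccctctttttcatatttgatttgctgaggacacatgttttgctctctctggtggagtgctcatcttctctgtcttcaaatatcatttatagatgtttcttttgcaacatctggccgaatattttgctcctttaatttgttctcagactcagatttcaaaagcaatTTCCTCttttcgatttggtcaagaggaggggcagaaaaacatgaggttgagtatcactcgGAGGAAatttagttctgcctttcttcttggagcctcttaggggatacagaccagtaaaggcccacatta
Klra2: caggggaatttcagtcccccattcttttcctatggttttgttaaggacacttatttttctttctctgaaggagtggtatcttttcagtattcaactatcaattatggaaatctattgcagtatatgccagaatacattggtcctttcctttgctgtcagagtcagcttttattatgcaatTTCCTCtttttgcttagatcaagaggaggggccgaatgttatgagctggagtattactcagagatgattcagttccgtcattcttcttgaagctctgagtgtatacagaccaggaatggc
Klrb1b: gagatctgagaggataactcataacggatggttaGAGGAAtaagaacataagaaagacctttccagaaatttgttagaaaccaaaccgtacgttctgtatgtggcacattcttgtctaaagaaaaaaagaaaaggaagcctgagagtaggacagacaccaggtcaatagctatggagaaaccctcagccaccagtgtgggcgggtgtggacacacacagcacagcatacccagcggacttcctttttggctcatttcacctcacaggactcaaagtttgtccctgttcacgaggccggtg
Klrk1: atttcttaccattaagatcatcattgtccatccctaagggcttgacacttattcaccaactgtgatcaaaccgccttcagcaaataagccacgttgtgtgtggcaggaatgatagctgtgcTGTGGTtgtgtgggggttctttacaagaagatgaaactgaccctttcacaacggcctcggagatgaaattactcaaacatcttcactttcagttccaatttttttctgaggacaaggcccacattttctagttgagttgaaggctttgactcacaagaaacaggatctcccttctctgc
The Klra4 and Klra8 promoters were identical at 86.3% of positions, and those of Klra3 and Klra9 at 90.3%. The table lists 27 promoters for the 22 members, some with more than 1 start. Of these, 17 (63.0%) held GAGGAA on either strand, against 28.3% of all 32851 promoters in the table, and 9 (33.3%) held TGTGGT, against 16.8%. Klrk1 held TGTGGT and, in this window, no GAGGAA, while the other 4 promoters printed held GAGGAA and no TGTGGT. A match is a run of letters and not a shown binding site, and related genes share promoter sequence by descent.

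Near-identical members may also share reads. Of the 50-base words in the last 500 bases of the transcripts, 49.4% of those of Klra9, 43.5% of Klrc1, 31.5% of Klra3, 24.9% of Klrc3, 22.1% of Klra7, 15.2% of Klrc2 and 13.1% of Klra8 also occurred in another Klr gene. Counts of these genes are uncertain to that extent. None of the words of Klrd1, Klrk1, Klre1, Klri2, Klrg1, Klra2, Klra5 or Klra17 were shared.

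Each cell type had its own mix of the family. The members summed to 27.4 UMIs per 10000 in gated NK cells, 9.35 in CD8 T cells, 8.89 in gamma delta T cells, 2.10 in CD4 T cells, 1.30 in macrophages and 0.0551 in epithelial cells, which served as a background gate. In NK cells the CD94 and NKG2 genes gave 35.7% of the family's UMIs and the Ly49 genes 34.2%. In CD8 T cells the CD94 and NKG2 genes gave 83.0% and the Ly49 genes 5.22%, whereas in macrophages the Ly49 genes gave 60.3% and the NKR-P1 genes 25.5%. By pooled level, among gates found in at least 3 libraries, 16 of the 25 members were highest in NK cells and 4 in gamma delta T cells. The dendritic and B cell gates, with 2 libraries each, were left out of this ranking. The other 5 were highest in 5 different gates: Klrc1 in CD8 T cells, Klrg1 in CD4 T cells with a Foxp3 UMI, Klra2 in macrophages, Klra17 in neutrophils and Klrg2 in epithelial cells. These pooled maxima are a description, and for Klrb1, Klrc3 and Klri1 they rest on 1 or 2 UMIs. With cells thinned to 3000 UMIs, Klrg2 had a UMI in 0.374% of epithelial cells and 0.422% of macrophages. Of all 230010 UMIs of the family in the 10 libraries, Klrd1 gave 42.8%, and Klrd1, Klrc1, Klrk1 and Klrc2 together gave 74.8%.

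**Figure D1:**
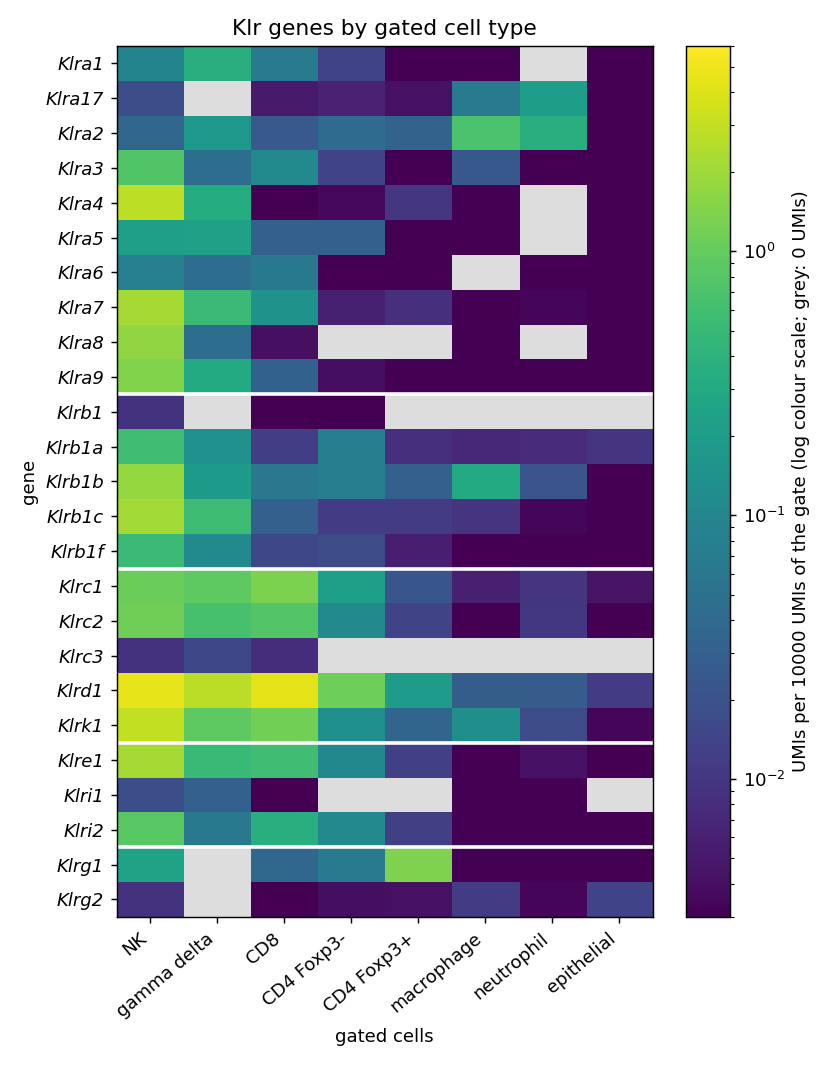
Pooled level of the 25 members in gated cell types (columns), as UMIs per 10000 UMIs of the gate on a log colour scale, with grey for 0 UMIs and white lines between the subfamilies. The dendritic and B cell gates are not drawn. The Ly49 and NKR-P1 genes are brightest in NK cells, Klrd1 is bright in NK, gamma delta and CD8 T cells, Klrg1 stands out in CD4 cells with a Foxp3 UMI, and Klra2 stands out in macrophages.

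Klra8, Klra4 and Klra9 had the largest fitted differences between NK and CD8 T cells among the members tested. Klra4, the activating receptor Ly49D, was at 2.10 and 2.64 UMIs per 10000 in the NK gates of untreated CD45 replicates 1 and 2 and at 5.66 in that of doxorubicin replicate 2, while its highest level in 10 CD8 gates was 0.00495. Klra8, the activating receptor Ly49H that recognises a cytomegalovirus protein, was at 1.46, 1.97 and 2.0 in the same 3 NK gates and at most at 0.0142 in CD8 gates. For both genes every NK gate lay above every CD8 gate. In the fit over gates with the library as a block, Klra8 was higher in NK than in CD8 cells by 9.62 on the log2 scale (SE 0.86, edgeR adjusted p = 2.98e-06) and Klra4 by 9.31 (SE 1.0, edgeR adjusted p = 7.46e-06). These fitted values are of genes near 0 in CD8 cells and depend on the prior count. A Klra4 UMI was found in 34.6% of NK cells, 0.149% of CD8 cells and 0.0434% of epithelial cells, whose median depths were 5812 to 6593, 6806 to 17703 and 14921 to 42371 UMIs. After thinning every cell to 3000 UMIs the NK share was 34.1% and the CD8 share 0.0510%. Thinning left out cells under 3000 UMIs and kept 85 of 104 NK, 13727 of 14124 CD8, 2993 of 3262 CD4, 2608 of 2822 macrophage, 1438 of 2179 neutrophil and 4281 of 4607 epithelial cells.

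Inhibitory or MHC-binding Ly49 genes were higher in NK cells as well. Klra9 (Ly49I) was at 1.04, 0.971 and 3.54 in the 3 NK gates against a median of 0.0174 over CD8 gates, and the difference was 6.60 (SE 0.75, edgeR adjusted p = 2.66e-06). Klra7 (Ly49G), an inhibitory receptor that CD8 T cells can also carry, was at 0.602, 2.72 and 6.00 in NK gates against 0.0343 to 0.472 in CD8 gates, a difference of 4.09 (SE 0.79, edgeR adjusted p = 0.00355). Klra3 (Ly49C) was at 0.292, 1.44 and 0.800 against a CD8 median of 0.0647, a difference of 3.46 (SE 0.54, edgeR adjusted p = 2.37e-04). Klra9 and Klra7 did not overlap between the gates, and both varied several-fold among the 3 NK gates. Klra1, Klra5 and Klra6 were not called between NK and CD8 cells, with adjusted p of 0.889, 0.127 and 0.789.

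The NKR-P1 genes formed the second NK group. Klrb1c, the classical NK cell marker of C57BL/6 mice, was at 1.35, 2.83 and 2.80 in the NK gates and at 0.0066 to 0.0757 in CD8 gates. Its difference was 5.74 (SE 0.70, edgeR adjusted p = 1.14e-05). Klrb1a was at 0.383, 0.999 and 0.343 in NK gates and 5.45 higher than in CD8 cells (SE 0.58), and Klrb1f at 0.255, 0.694 and 1.03 and 4.92 higher (SE 0.66). Klrb1b, the inhibitory receptor for the ligand encoded by Clec2d, was at 1.04, 2.72 and 2.23 in NK gates and 4.32 higher (SE 0.81, edgeR adjusted p = 0.00264). Its highest CD8 level, 0.442, was in untreated CD45 replicate 2, the library whose CD8 gate held macrophage RNA, and that level was 0.0925 among its CD8 cells without such RNA.

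Klre1 and Klri2, whose products pair with each other on NK cells, were higher in NK cells as well. Klre1 was at 1.37, 2.44 and 3.89 in NK gates against 0.205 to 0.888 in CD8 gates, a difference of 2.81 (SE 0.52, edgeR adjusted p = 0.00194). Klri2 was at 0.565, 0.916 and 1.66 against 0.0308 to 0.594, a difference of 2.67 (SE 0.57, edgeR adjusted p = 0.00834). For Klri2 the lowest NK gate lay below the highest CD8 gate, which belonged to the anti-CTLA4 library. A Klri2 UMI was found in 45.2% of NK cells, 17.5% of CD8 cells and 0.260% of epithelial cells, and after thinning in 17.6%, 8.33% and 0.0234%.

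In all, 11 of 22 members tested were higher in NK than in CD8 cells and 0 were lower, where 1.3% of all 12872 genes tested were higher. Cells with a UMI of the NK receptor gene Ncr1 were left out of the CD8 gate, and the part of this in the differences was not tested. The members' median difference was 2.76 on the log2 scale beside a median of -0.09 over all genes. Over all genes 167 were higher and 190 lower, a split that became 224 and 133 with RLE size factors, which moved the median to 0.03. Leaving out any 1 of the 3 libraries with NK cells kept 9 of these 11 genes in every case, and the exceptions were Klra7 and Klri2. The CD94 and NKG2 genes did not differ beyond the spread: Klrd1 was 0.79 higher in NK cells (SE 0.40, edgeR adjusted p = 0.332), Klrk1 1.02 higher (SE 0.67, edgeR adjusted p = 0.487) and Klrc2 0.79 higher (SE 0.50, edgeR adjusted p = 0.467). Klrc1 differed by -0.14 (SE 0.47, edgeR adjusted p = 0.942).

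NK cells differed in the number of Ly49 genes with a UMI. Which of these genes occurred together was not counted. The part of missed detection and of shared 3' ends in the numbers was not tested. Klra2 and Klra17 were left out of the counts per cell, and Klra10, which is not a member, was in them. After thinning to 3000 UMIs, a mean of 1.25 and 1.5 different Klra genes had a UMI per NK cell in untreated CD45 replicates 1 and 2 and 2.07 in doxorubicin replicate 2, and unthinned the means were 1.54, 1.66 and 2.30. Cells with no UMI of the Klra genes counted made up 34.4%, 26.3% and 20% of the thinned NK cells, and cells with 4 or more of these genes made up 3.13%, 5.26% and 26.7%. The last value rests on 15 cells, and the NK markers of that gate summed to 103 UMIs per 10000 against 38.4 and 51.3 in the untreated gates. No test was made, since 1 doxorubicin library held enough NK cells. The NK share of kept cells was 1.82% ± 1.12 (SD, n = 2) in untreated CD45 libraries and 0.385% ± 0.163 (SD, n = 2) after doxorubicin, lower by 1.44 percentage points (two-sided exact permutation p = 0.33, the smallest that 2 against 2 libraries can give). Gated neutrophils were 177 of 3581 and 51 of 1797 kept cells in untreated replicates 1 and 2. In doxorubicin replicates 1 and 2 they were 515 of 1480 and 1203 of 3996, and their part in the NK share was not tested.

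Gamma delta T cells held a partial NK pattern that rested on 1 library. Of 22 members, 4 were higher in gamma delta than in CD8 T cells (1.12% of all genes were): Klra4 by 6.14 (SE 1.24, edgeR adjusted p = 0.0106), Klra9 by 3.88 (SE 0.84, adjusted p = 0.0119), Klrb1c by 3.69 (SE 0.80, adjusted p = 0.0126) and Klrb1a by 3.24 (SE 0.87, adjusted p = 0.037). In untreated CD45 replicate 1, untreated CD45 replicate 2 and the CD4/8-sorted 48 h library these genes had 20, 1 and 0 UMIs of Klra4, 18, 2 and 0 of Klra9, 26, 5 and 4 of Klrb1c and 5, 3 and 1 of Klrb1a. Most of the UMIs therefore came from the 25 cells of untreated CD45 replicate 1, and without that library 0 members were called. With at least 2 UMIs required for each gate gene, Klra4 turned to -3.33 (edgeR adjusted p = 0.955). NK markers in the 3 gates summed to 21.3, 6.53 and 12.7 UMIs per 10000, and their part in the result was not tested. Over all genes 144 were higher and 296 lower in gamma delta cells, and with RLE size factors, which moved the median from -0.17 to 0.03, the split was 208 and 98. Klrd1 was at 4.16, 1.08 and 4.06 and Klrg1 had no UMI in any of the 3 gates.

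The CD94 and NKG2 receptors marked CD8 against CD4 T cells. Klrd1 (CD94) ranged from 2.70 to 6.16 UMIs per 10000 in 10 CD8 gates, with a median of 3.85, and from 0.293 to 1.77 in 10 CD4 gates, with a median of 0.739. Klrc1 (NKG2A) had a median of 1.31 in CD8 and 0.156 in CD4 gates, and Klrk1 (NKG2D) one of 0.968 and 0.109. For these 3 genes no CD4 gate reached the lowest CD8 gate. The differences were 2.48 for Klrd1 (SE 0.26, edgeR adjusted p = 2.44e-07), 3.23 for Klrc1 (SE 0.30, adjusted p = 3.31e-08), 3.18 for the activating Klrc2 (SE 0.32, adjusted p = 1.27e-07) and 3.29 for Klrk1 (SE 0.45, adjusted p = 1.38e-05). A Klrd1 UMI was found in 80.5% of CD8 cells, 22.1% of CD4 cells and 3.58% of epithelial cells, and after thinning in 60.1%, 15.6% and 0.420%. Klrd1 was not confined to lymphocytes, with a UMI in 72.5% of 69 gated dendritic cells and in 35.8% of them after thinning.

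Several Ly49 genes were higher in CD8 than in CD4 T cells. Klra6 (Ly49F) was at 0.00396 to 0.219 in CD8 gates and at most at 0.00209 in CD4 gates, a difference of 6.81 (SE 0.70, edgeR adjusted p = 1.51e-06), and Klra7 differed by 4.62 (SE 0.63, adjusted p = 1.16e-05). Klre1 was higher by 2.79 (SE 0.36) and Klri2 by 1.75 (SE 0.37, adjusted p = 0.00181). In total 13 of 22 members were higher in CD8 cells (6.03% of all genes were) and 2 were lower (7.5% of all genes were). The lower members were Klrg1, by 2.79 on the log2 scale (SE 0.29, adjusted p = 1.75e-07), and Klrb1a, by 1.99 (SE 0.37, adjusted p = 3.98e-04). In the 4 CD45-sorted libraries alone 3 members were called, and 32 genes in all. Gamma delta T cells were not part of this contrast. After thinning, a Klra7 UMI was found in 11.6% of 43 gamma delta cells and 2.32% of CD8 cells, and a Klra6 UMI in 0% and 1.56%.

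Detection of 1 member went with detection of another within the CD8 gate. Among CD8 cells thinned to 3000 UMIs, Klrd1 had a UMI in a median of 70.4% of cells with a Klrc1 UMI and in 49.8% of cells without one, and the first share was higher in 10 of 10 libraries. Klrd1 was found in 81.6% of cells with a Klri2 UMI against 55.4% of the others, again higher in 10 of 10. Klrc1 was found in 52.1% of cells with a Klrc2 UMI against 26.0% of the others (10 of 10 libraries), although these genes share part of their 3' ends. Klre1 was found in 28.9% of cells with Klri2 against 8.90% of the others, higher in 8 of 10 libraries. These are shares over cells of a library and were compared without a test.

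Klrg1 followed Foxp3, the factor that defines regulatory T cells. In the 8 libraries with at least 10 CD4 cells holding a Foxp3 UMI, Klrg1 ranged from 0.812 to 2.96 UMIs per 10000 in those cells, with a median of 1.13. In CD4 cells without a Foxp3 UMI it ranged from 0 to 0.177 over 10 libraries, so the groups did not overlap. The difference was 4.24 on the log2 scale (SE 0.39, edgeR adjusted p = 2.01e-04). A Klrg1 UMI was found in 42.2% of cells with a Foxp3 UMI, 3.06% of those without, 13.5% of NK cells, 2.89% of CD8 cells and 0.174% of epithelial cells. After thinning the shares were 29.6%, 1.81%, 8.24%, 1.13% and 0.0234%. Klrd1 was lower in the cells with a Foxp3 UMI by 2.52 on the log2 scale (SE 0.40, adjusted p = 0.00452) and Klrk1 by 1.93 (SE 0.46, adjusted p = 0.0147). These 3 were all the members that passed the filter on low counts, and 13.6% of all genes were called. A CD4 cell without a Foxp3 UMI may still be a regulatory T cell.

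**Figure D2:**
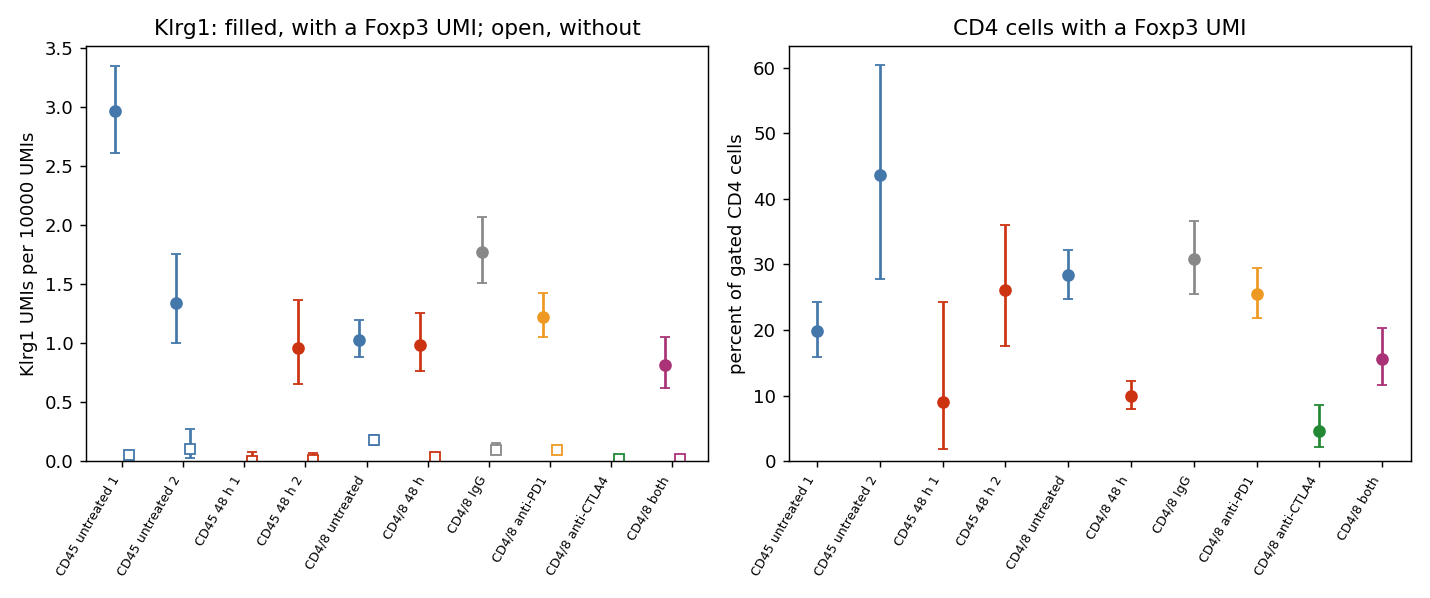
Left, Klrg1 level (UMIs per 10000) in gated CD4 cells with a Foxp3 UMI (filled circles) and without one (open squares) in each library, and right, the percent of gated CD4 cells with a Foxp3 UMI, with exact 95% intervals that cover counting error only. Filled circles are drawn for the 8 libraries with at least 10 such cells and lie between 0.812 and 2.96, above every open square.

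Klrg1 and Klri2 were singled out for their values at 48 h, so these are a description, with no test. At 48 h after doxorubicin Klrg1 in the CD4 gate was at 0.115 and 0.276 in the CD45 libraries and 0.141 in the CD4/8-sorted library, against 0.581, 0.736 and 0.435 in the matching untreated libraries. All 3 doxorubicin values lay below all 3 untreated ones. The fitted difference was -1.75 on the log2 scale (SE 0.33). The share of CD4 cells with a Foxp3 UMI was 19.8%, 43.6% and 28.4% in those untreated libraries and 9.09%, 26.0% and 9.96% in the doxorubicin ones. Within cells holding a Foxp3 UMI, Klrg1 was at 1.03 in the untreated and 0.986 in the 48 h CD4/8-sorted library, and at 2.96 and 1.33 in the untreated CD45 libraries against 0.960 in doxorubicin replicate 2. Whether the difference lay in the share of such cells, in their level or in both was not tested.

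Klri2 in the CD4 gate at 48 h is described in the same way. It was at 0.00418, 0 and 0.0529 in the untreated libraries (CD45 replicates 1 and 2, then CD4/8) and at 0.0192, 0.0518 and 0.151 in the doxorubicin ones. Each doxorubicin library was above the untreated library of its sort and number, but the groups overlapped. The fitted difference was 2.10 (SE 0.70). In the CD8 gate Klri2 was at 0.0679, 0.343 and 0.0308 in untreated and 0.0757, 0.241 and 0.151 in doxorubicin libraries, a fitted difference of 0.44 (SE 0.88). Leaving out each library in turn moved the CD8 difference between -0.40 and 1.62. The fitted difference of Klrg1 in the CD8 gate was -0.27 (SE 0.66).

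By edgeR, 0 of 10 members tested in CD4 cells and 0 of 18 in CD8 cells were called at 48 h, where 0.0% of all genes were called in either gate. At an unadjusted p under 0.05 there were 812 of 10782 genes with 2 members, Klrg1 and Klri2, in CD4 cells, and 1101 of 11606 genes with 1 member, Klre1, in CD8 cells. Klre1 differed by -0.60 in CD8 cells (SE 0.19, edgeR adjusted p = 0.477), from 0.342, 0.392 and 0.426 in untreated to 0.205, 0.295 and 0.336 in doxorubicin libraries, which did not overlap. DESeq2 called 82 genes with 1 member, Klrg1, in CD4 cells and 163 genes with 0 members in CD8 cells. Nothing is read from the counts that hold Klrg1 or Klri2. S100a8 and S100a9, neutrophil genes, were higher in the same gates of the doxorubicin CD45 libraries than of the untreated ones, and their part in these values was not tested.

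Macrophages used the family in another way. Klra2 (Ly49B), a Ly49 gene of myeloid cells, ranged from 0.257 to 1.23 UMIs per 10000 over 10 macrophage gates and from 0.00825 to 0.578 over CD4 gates, and was 4.13 higher (SE 0.57, edgeR adjusted p = 8.95e-07). The CD4 value of 0.578 was that of untreated CD45 replicate 2, whose gate held macrophage RNA. Klra17 (Ly49Q), also a myeloid gene, was 2.43 higher (SE 0.67), Klra3 1.69 higher (SE 0.49) and Klrb1b 1.48 higher (SE 0.58, adjusted p = 0.0302). These 4 members of 22 were higher in macrophages, where 31.7% of all genes were and 10 were lower, where 31.8% were. Among the 10, Klrg1 was lower by 8.59 on the log2 scale (SE 0.54) and Klrd1 by 4.46 (SE 0.32). A Klra2 UMI was found in 42.6% of macrophages, 14.2% of neutrophils and 0.651% of epithelial cells, whose median depths were 7624 to 19511, 2170 to 5437 and 14921 to 42371 UMIs, and after thinning in 18.3%, 11.9% and 0.0701%.

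In macrophages 3 members fell by 48 h after doxorubicin. Klrb1b was at 0.510 and 0.713 UMIs per 10000 in macrophages of untreated CD45 replicates 1 and 2 and at 0.0721 and 0.0516 in the doxorubicin replicates. Klra2 was at 0.960 and 1.23 in untreated and 0.345 and 0.296 in doxorubicin macrophages, and Klrk1 at 0.184 and 0.347 against 0.0210 and 0.0216. For all 3 genes both untreated libraries lay above both doxorubicin libraries. Klrb1b fell by 3.41 on the log2 scale (SE 0.28, edgeR adjusted p = 6.71e-04), Klrk1 fell by 3.69 (SE 0.41, adjusted p = 0.00288) and Klra2 fell by 1.84 (SE 0.22, adjusted p = 0.00288). They were 3 of 7 members tested, where 3.16% of all 11714 genes were lower, and the other members did not pass the filter on low counts.

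The other 4 members tested in macrophages were not called. Klra17 was at 0.0671 and 0.249 in untreated and 0.00901 and 0.00666 in doxorubicin macrophages, without overlap, and differed by -4.41 (SE 0.92, edgeR adjusted p = 0.0587). Klrd1 was at 0.0136 and 0.0267 against 0.0210 and 0.0499 and differed by 0.83 (SE 0.59, adjusted p = 0.451). Klra3 (adjusted p = 0.516) and Klrb1c (adjusted p = 0.958) made up the rest. The members' median was -1.84 beside 0.01 over all genes tested.

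**Figure D3:**
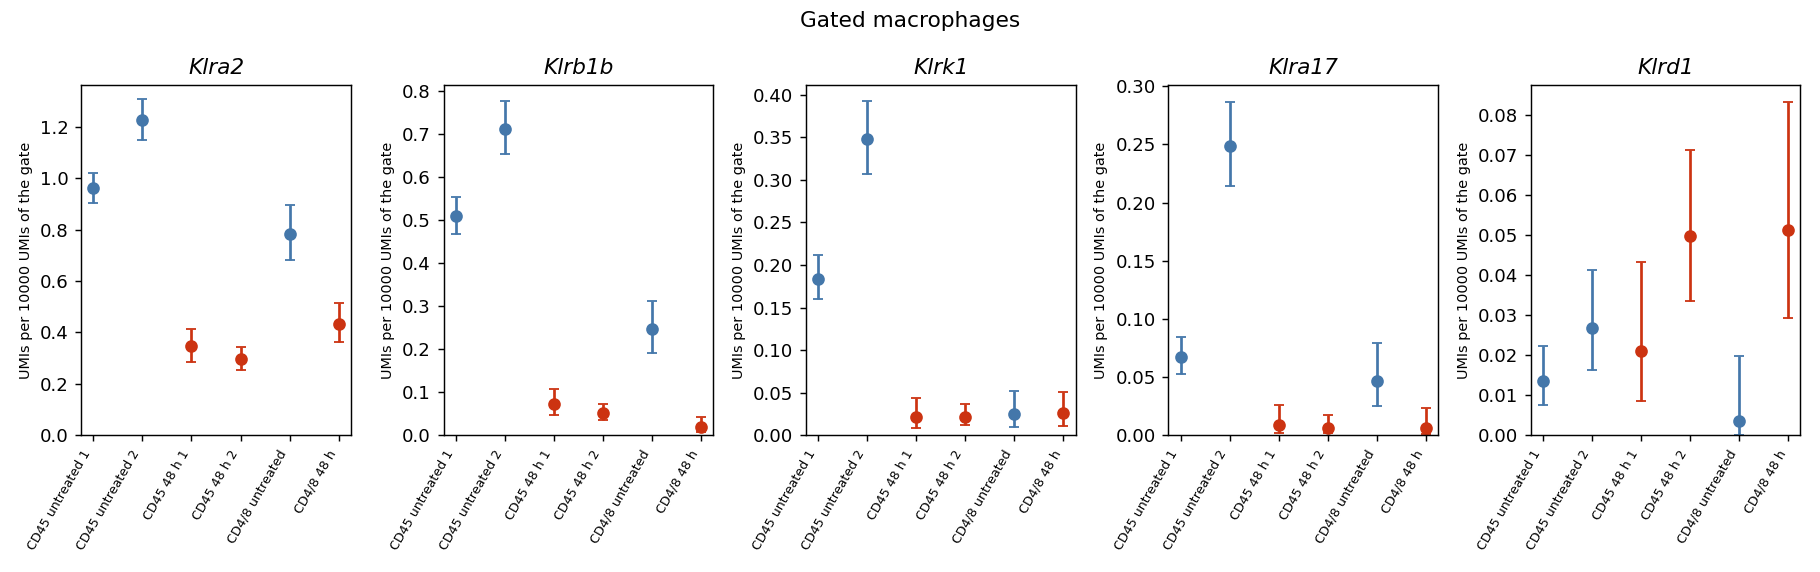
Levels of 5 members (UMIs per 10000, linear axes from 0) in gated macrophages of untreated (blue) and 48 h doxorubicin (red) libraries of both sorts, with exact 95% Poisson intervals that cover counting error only. Klra2, Klrb1b and Klra17 are lower in every doxorubicin library than in any untreated one, Klrk1 is lower in the CD45 sort alone, and Klrd1 shows no fall.

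The macrophages that came along in the CD4/8 sort gave a further pair of libraries. From untreated to 48 h, Klrb1b went from 0.247 to 0.0193, Klra2 from 0.784 to 0.434 and Klra17 from 0.0465 to 0.00642, while Klrk1 was at 0.0251 and 0.0257. With these libraries added and the sort as a term, Klrb1b (-3.47, edgeR adjusted p = 6.03e-05), Klra2 (-1.55, adjusted p = 0.00375) and Klra17 (-4.12, adjusted p = 0.0196) were called, and Klrk1 (-2.98, adjusted p = 0.0719) was not. Leaving out each library of the 2 against 2 comparison in turn gave 2 to 4 members called, all lower, where 1.18% to 2.74% of all genes were lower. Requiring at least 2 UMIs of each gate gene gave 2, Klra2 and Klrb1b, where 2.3% of all genes were lower, with Klrk1 at an adjusted p of 0.0543.

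Markers of other cells were measured in the same macrophage gates. The 6 T cell markers summed to 0.108 and 0.0561 UMIs per 10000 in untreated and 0.0541 and 0.140 in doxorubicin macrophages, with none at 0. The 8 NK markers summed to 3.74 and 3.27 in untreated and 2.14 and 2.35 in doxorubicin macrophages, with 0 to 2 of them at 0, and their list includes Irf8, which macrophages express too. S100a8 and S100a9 summed to 0.302 and 0.191 against 4.06 and 3.86. Markers of dendritic cells were not measured in these gates. A Klrk1 UMI was found in 55.1% of gated dendritic cells and 10.6% of macrophages, and a Klrb1b UMI in 27.5% and 14.6%. The part of NK, neutrophil or dendritic cell RNA in the falls was not tested. The change in Klrk1 differed between macrophages and CD8 cells by -3.60 (SE 0.48), which did not pass over all genes by edgeR (adjusted p = 0.625) and did by DESeq2 (-3.58, adjusted p = 0.00279). By edgeR 0 of 17 members were called in that test of the difference.

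In the sums of whole CD45 libraries, 1 of 22 members was called, where 5.5% of all 16068 genes were. Klra5 (Ly49E) had 168 and 161 UMIs in untreated and 8 and 20 in doxorubicin libraries and fell by 2.82 on the log2 scale (SE 0.51, edgeR adjusted p = 0.0395). No Klra5 call remained when either doxorubicin library or untreated replicate 2 was left out. In gates, Klra5 was at 0.434 and 0 in gamma delta cells and at 0.0719 and 0.0290 in CD8 cells of the untreated CD45 libraries. Over the 3 NK gates, of both treatments, Klra5 ranged from 0 to 0.611 with a median of 0.0365. The members' median was -0.95 beside -0.02 over all genes. In such sums, fewer cells of a type and less RNA per cell cannot be told apart, and the NK share given above was lower in both doxorubicin libraries.

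The 6 CD4/8-sorted libraries followed the receptors through treatment, with 1 library per group and therefore no test. Ratios carry exact intervals at 95% that cover counting error only, and a gene is counted as past 2-fold where both libraries together held at least 20 UMIs. The 48 h library serves in the first 2 comparisons and the IgG library in the last 4, so those comparisons share cells. In CD8 cells, Klri2 was at 0.0308 UMIs per 10000 untreated, 0.151 at 48 h, 0.542 with IgG, 0.165 with anti-PD1, 0.594 with anti-CTLA4 and 0.536 with both antibodies. Its ratio was 4.91 (3.78 to 6.45) at 48 h against untreated and 3.59 (3.22 to 4.01) for IgG against 48 h. Since Klri2 was singled out for its values at 48 h, these 2 ratios are a description. Against IgG it was 0.304 (0.270 to 0.341) with anti-PD1, so that library stood apart from the other 3 antibody groups. Thinned to 3000 UMIs, 0.761%, 3.07%, 13.1%, 4.86%, 15.0% and 12.3% of CD8 cells held a Klri2 UMI in that order.

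Klre1, the partner of Klri2, had the same low value with anti-PD1. It was at 0.426 untreated, 0.336 at 48 h, 0.888 with IgG, 0.244 with anti-PD1, 0.724 with anti-CTLA4 and 0.835 with both, and its ratio of anti-PD1 to IgG was 0.275 (0.250 to 0.302). Klrd1 was at 6.16 with IgG and 3.10 with anti-PD1, which stayed inside 2-fold. The Ly49 genes Klra7 and Klra6 took another course. Klra7 was at 0.472 untreated, 0.216 at 48 h and 0.0758 with IgG, and Klra6 at 0.219, 0.0913 and 0.0630. Of these 6 libraries both were lowest in those of antibody groups, with Klra7 at 0.0564 to 0.0742 and Klra6 at 0.0215 to 0.0278 in the 3 groups given a checkpoint antibody. Klra6 and Klra3 were past 2-fold lower than IgG in each of these 3 groups.

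**Figure D4:**
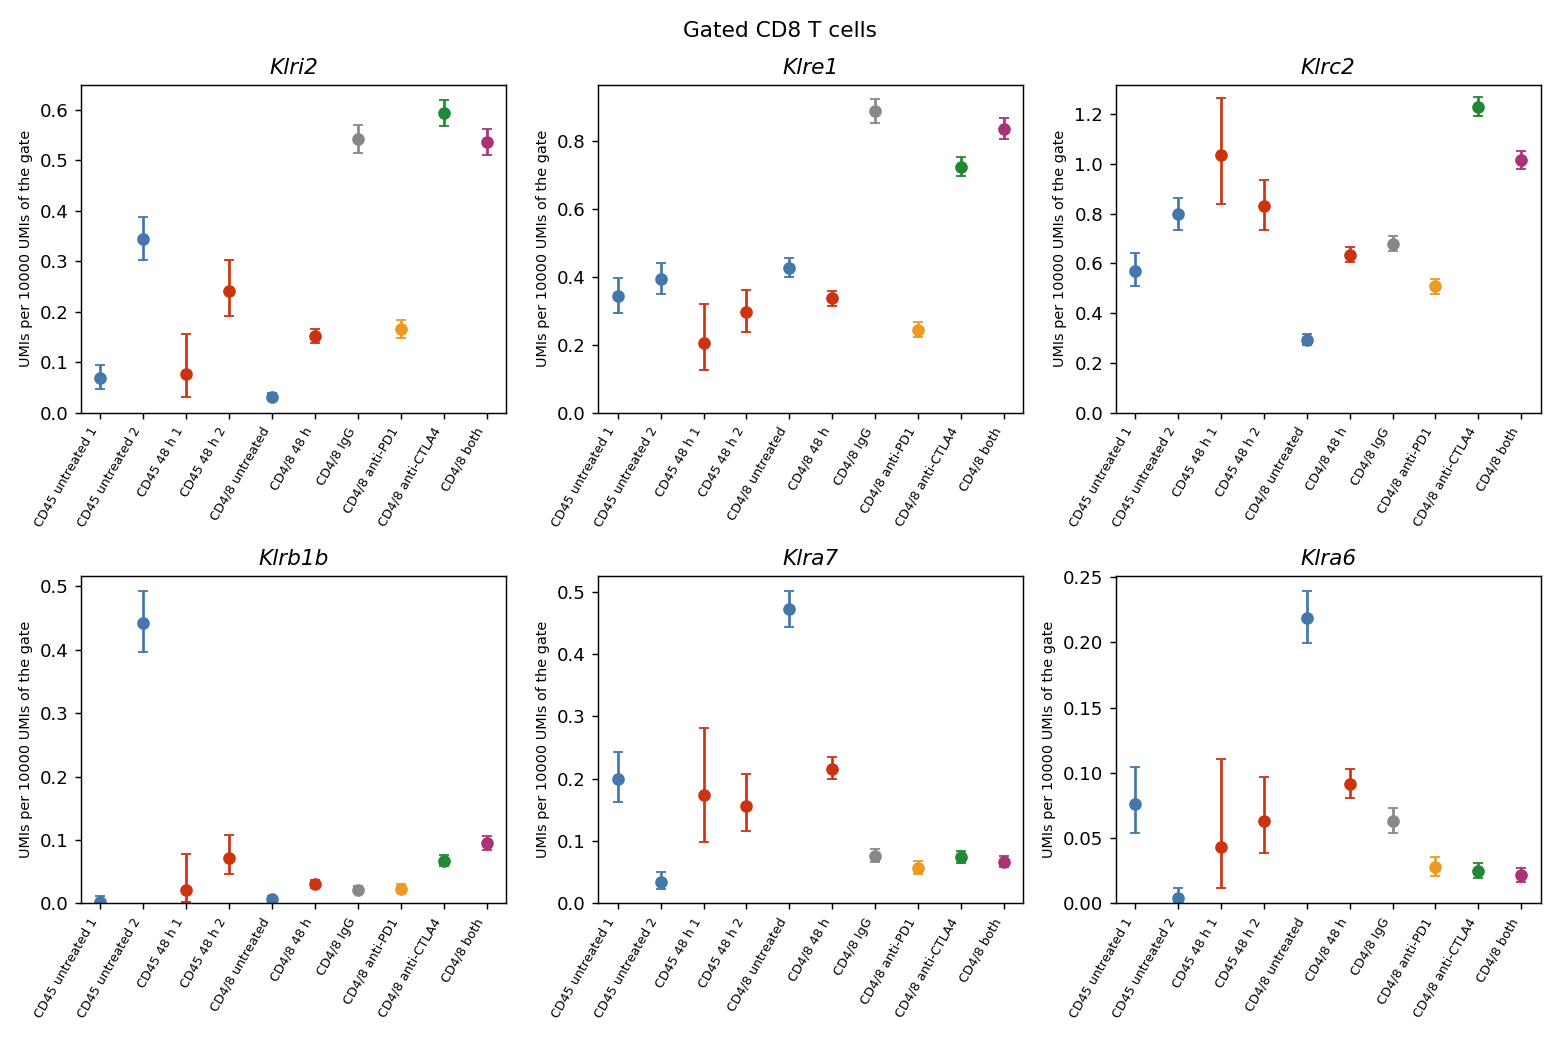
Levels of 6 members (UMIs per 10000, linear axes from 0) in gated CD8 T cells of all 10 libraries, with exact 95% Poisson intervals that cover counting error only. Klri2 and Klre1 are high with IgG, anti-CTLA4 and both antibodies and low with anti-PD1, Klra7 and Klra6 are highest in the untreated CD4/8-sorted library, and Klrb1b is highest in untreated CD45 replicate 2, whose gate held macrophage RNA.

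Counted over the family in CD8 cells, 7 of 19 members were past 2-fold at 48 h against untreated (3 higher, 4 lower), where 11.3% of all genes were. For IgG against 48 h there were 11 of 21 (4 higher, 7 lower) against 10.2%. Both counts hold Klri2 and Klrg1, singled out for their values at 48 h, so nothing is read from them. Against IgG there were 9 of 19 with anti-PD1 (background 11.9%), 7 of 19 with anti-CTLA4 (6.78%) and 4 of 19 with both antibodies (9.7%). Members with low counts gave part of these: Klra2 with both antibodies rests on 2 UMIs against 22. The activating Klrc2 was at 0.293 untreated and 0.635 at 48 h, a ratio of 2.17 (1.98 to 2.38), and was at 1.23 with anti-CTLA4 and 1.02 with both antibodies. Klrb1b was past 2-fold higher than IgG with anti-CTLA4, at 3.07 (2.29 to 4.15), and with both, at 4.37 (3.30 to 5.88).

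In CD4 cells of the anti-CTLA4 library, Klrg1 was the 1 member past 2-fold below IgG. It was at 0.435 untreated, 0.141 at 48 h, 0.643 with IgG, 0.423 with anti-PD1, 0.0498 with anti-CTLA4 and 0.179 with both antibodies. Against IgG its ratio was 0.0775 (0.0393 to 0.139) with anti-CTLA4, from 12 against 184 UMIs, and 0.278 (0.205 to 0.371) with both. The share of CD4 cells with a Foxp3 UMI was 30.8% with IgG, 25.5% with anti-PD1, 4.62% with anti-CTLA4 and 15.6% with both, and the part of that share in the Klrg1 level was not tested. Within cells with a Foxp3 UMI, Klrg1 was at 1.77 with IgG, 1.22 with anti-PD1 and 0.812 with both. In the anti-CTLA4 library 9 such cells were found, which is under the minimum of 10.

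The IgG library was the lowest of the 6 for Klrc2 and Klrc1 in CD4 cells. Klrc2 was at 0.0634 untreated, 0.140 at 48 h, 0.0105 with IgG, 0.0908 with anti-PD1, 0.133 with anti-CTLA4 and 0.164 with both antibodies, and the IgG value rests on 3 UMIs. Klrc1 was at 0.159, 0.243, 0.0804, 0.165, 0.154 and 0.357 in the same order. IgG was 0.0751 times the 48 h level for Klrc2 (0.0152 to 0.227) and 0.331 times for Klrc1 (0.204 to 0.517). In the whole family, 6 of 11 members were past 2-fold in CD4 cells at 48 h against untreated (14.3% of all genes) and 7 of 11 for IgG against 48 h (12.8%). Both counts hold Klrg1 and the first also holds Klri2, so nothing is read from them. Against IgG there were 2 of 9 with anti-PD1 (9.45%), 4 of 9 with anti-CTLA4 (8.78%) and 6 of 9 with both (10.5%). Klrd1 was at 1.77 at 48 h and 0.588 untreated, a ratio of 3.01 (2.66 to 3.41), and was at 0.783 with IgG.

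The macrophages of the same libraries gave Klrb1b at 0.247 untreated, 0.0193 at 48 h, 0.237 with IgG, 0.0332 with anti-PD1, 0.469 with anti-CTLA4 and 0.155 with both antibodies. IgG was 12.3 times the 48 h level (5.28 to 35.1), from 51 against 6 UMIs, and anti-PD1 0.140 times the IgG level (0.0770 to 0.244). Klrk1 had the same order in the antibody groups, at 0.0930, 0.0148, 0.329 and 0.0564. Anti-PD1 was the lowest of the 4 antibody groups for both genes. The anti-CTLA4 value rests on 65 macrophages and that with both antibodies on 42.

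The partners of the family were counted on lists of ligands, adaptors, NK transcription factors, other NK receptors and killing genes. Between NK and CD8 cells, the adaptor Tyrobp, which carries the signal of activating Ly49 receptors, was higher in NK cells by 2.88 (edgeR adjusted p = 0.0399), and Lat, Plcg1 and Ptpn6 were lower. Of 17 adaptors 1 was higher and 3 were lower, beside 1.3% and 1.48% of all genes, and the list's median was -0.28. Of 7 killing genes tested, the granzyme Gzmc was 6.03 higher and Gzmk lower by 3.78 on the log2 scale, and of 11 other receptors the interleukin receptor chain Il12rb2 was 2.27 higher. None of 10 ligands or 12 transcription factors tested was called. Between CD8 and CD4 cells the adaptor Hcst, which pairs with NKG2D, was 0.71 higher in CD8 cells. Of 17 adaptors 2 were higher and 3 lower in CD8 cells, and the list's median was -0.0065. Of 11 other NK receptors 4 were higher and 1 was lower. Among all genes 6.03% were higher and 7.5% lower.

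At 48 h in macrophages, where the 3 receptors fell, 0 of 15 adaptors were called, beside 6.15% of all genes. Of 10 ligands, H2-T23, which encodes the molecule that CD94 with NKG2A recognises, fell by 1.48 on the log2 scale (edgeR adjusted p = 0.0435). Of 6 other NK receptors tested Slamf7 fell by 2.27 (adjusted p = 0.00132), and of 9 transcription factors Rora rose by 1.17 and Prdm1 fell by 0.90. In whole CD45 libraries 1 of 11 killing genes, Ifng, fell by 3.07 (adjusted p = 0.0199), and in CD8 and CD4 cells none of these lists held a called gene.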

How the data were processed

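Per the labels' protocols, magnetic extraction on CD45 or on CD4 and CD8 followed digestion, and the libraries are droplet libraries of transcript 3' ends. The deposited matrices hold UMI counts per gene and barcode, made by the authors with Cell Ranger 6.0.0 per the file headers, with barcodes already called as cells. They carry no gene names, so names were taken from the row order of the deposited pooled tumour table (row totals of each matrix and the table correlated across genes at 0.954 to 0.984, against 0.354 at best with rows shifted by 1 to 50). Cells with at least 500 UMIs, 200 genes and at most 20% mitochondrial UMIs were kept. No doublet caller was run. Barcode names were not used here, so barcodes shared between libraries were not counted.

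Cells were gated by UMIs. NK cells had none of Cd3d, Cd3e, Cd3g, Trac, Cd4 or Cd8b1, and had Ncr1 or at least 3 of 6 effector genes. Each T cell gate required a CD3 gene. Gamma delta T cells had Trdc without Trac, Cd4 or Cd8b1. CD8 T cells had Cd8b1 without Cd4, Trdc or Ncr1. CD4 T cells had Cd4 without Cd8a, Cd8b1, Trdc or Ncr1. Macrophages had Csf1r and Adgre1 without a CD3 gene or Ncr1. Dendritic cells had Flt3 with Xcr1, Clec9a, Ccr7 or Cd209a, without a CD3 gene. A cell in 2 gates was dropped from both. Counts were summed per library and gate and tested in R 4.3.3 with edgeR 4.0.16 (two-sided robust quasi-likelihood F test after filterByExpr and TMM), with Benjamini-Hochberg adjustment over all genes tested and a threshold of 0.05. T cell fits at 48 h used 3 against 3 libraries with the sort as a term, macrophage and whole-library fits 2 against 2, and fits between gates the library as a block without the gating genes. NK cells at 48 h were not tested with all libraries because doxorubicin replicate 1 held 4 of them, and gamma delta cells at 48 h were not tested. On simulated counts with 200 genes changed by 2 on the log2 scale, the fit recovered 185 in whole libraries and 188 in CD8 gates. Every simulated gene had the same spread between libraries, with no effect of sort or replicate. These counts therefore do not measure how many changes the fit would find in the real libraries. Values were also computed with DESeq2 1.42.0, RLE size factors, other filters and gates, and with libraries left out. Intervals are exact at 95% (Python 3.11.15, scipy 1.17.1).

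Values in every library are given for members called in any comparison, for Klri2 and Klrg1 and for the most abundant members of each gate, and the others by ranges and counts. The members, gates and gene lists were chosen with earlier results of these data known. The 12 columns of a bulk expression table match no sample and were not used, and ATAC samples were not analysed here.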

Additional observations from a re-analysis of the deposited data

Results flagged for a closer look

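The pooled table of unsorted tumour cells entered no comparison, because its cell names match no sample, and it held a signal above the limit that a count of 0 allows. Of its 4016 cells, 9.94% had a UMI of Klrd1, 9.16% one of Klra2 and 6.65% one of Klrk1.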

How the results depend on the processing

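Of the values of single genes recomputed under the alternatives, 450 stayed on the same side of the threshold, and 49 lost and 3 gained the call. Among values called in either fit, 1 changed direction, Klra4 in gamma delta cells at -3.33 with the stricter gate. The 450 include values without a call in either fit that changed sign. With libraries left out, Klri2 in CD8 cells at 48 h ran from -0.40 to 1.62 and Klrg1 from -0.76 to 0.69. In whole CD45 libraries 1 member was called, 3 by DESeq2 (15.7% of all genes) and 2 without a filter on low counts (8.45%), and 0 to 4 when each library was left out (2.53% to 3.87%). In CD4 cells at 48 h DESeq2 called 1 member (0.761% of all genes), Klrg1. Nothing is read from this call, since Klrg1 was singled out for its values at 48 h. Between gamma delta and CD8 cells the count of 4 became 2 with the stricter gate (0.955%), 0 in the CD45 libraries alone and 0 to 4 when each library was left out. In the CD45 libraries alone 3 members were called between CD8 and CD4 cells (0.299%) and 9 between macrophages and CD4 cells (30.4%). By Foxp3 the count of 3 became 9 of 22 with no filter (6.25%), 1 of 2 tested in the CD45 libraries (0.395%) and 8 of 8 in the CD4/8-sorted ones (12.8%). DESeq2 called 1 member (0.288%) for the difference between macrophages and CD8 cells, a test added after seeing the data, as were the gates without macrophage RNA and the leaving out of libraries between gates. On thinned shares, 1 member was past 2-fold with anti-PD1 in CD4 cells and 7 with both antibodies in CD8 cells. The cause of these shifts was not tested.

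The 2 CD45 replicate pairs gave a correlation of deviations of 0.206, the same for both by construction, so the numbers were not taken to pair the samples. With the replicate block, 2 members were called in whole libraries (1593 genes against 884) and 4 of 7 in macrophages (1410 genes against 720), 0 in CD8 cells (20 genes) and 0 in CD4 cells (26 genes).

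NK cells at 48 h could be fitted only without doxorubicin replicate 1, which left 1 doxorubicin library assumed to vary like the untreated ones: 0 of 17 members and 0 of 6048 genes were called by edgeR, with 1 member, Klra9, at an unadjusted p under 0.05. Precision is limited by 104 NK and 45 gamma delta cells.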
